A study of Mus musculus with 79 samples.

Results

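The 9 genes described here encode receptors and enzymes of the endocannabinoid system: Cnr1, Gpr55, Dagla, Daglb, Mgll, Abhd6, Abhd12, Napepld and Faah. They were taken by name, with no measured value in the rule, from a table of 25899 gene rows, and all 9 were found in it. The table holds mRNA that was attached to tagged ribosomes in mouse brain. A transgene on a bacterial artificial chromosome (BAC) joins green fluorescent protein to the ribosomal protein L10a under the promoter of either the dopamine D1a receptor or the D2 receptor, so that a GFP antibody recovers ribosomes from the cells in which that promoter is active (bacTRAP). Every library was a pool from 3 mice, of both sexes where the labels give the sex of all 3, heterozygous for the transgene on a C57BL/6J background; the labels give no age and name no treatment. There were 15 libraries of D1 dorsal striatum, 16 of D2 dorsal striatum, 15 of D1 ventral striatum (nucleus accumbens), 14 of D2 ventral striatum and 19 of D1 prefrontal cortex, and no D2 cortex was analysed here.

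Endocannabinoids are lipid messengers that a neuron makes on demand, usually from its postsynaptic membrane, and that travel back to presynaptic terminals. The main ones are 2-arachidonoylglycerol (2-AG), made from diacylglycerol by diacylglycerol lipases and broken down mainly by monoacylglycerol lipase, and anandamide, made from membrane phospholipid and broken down by fatty acid amide hydrolase. Both act on the CB1 cannabinoid receptor, which lowers transmitter release. Projection neurons of the striatum both carry CB1 on their axons and release endocannabinoids from their dendrites, and this signal takes part in striatal synaptic depression and habit learning.

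Levels are in CPM, read counts scaled to a library total that the authors set and that is larger than the reads in listed genes. Between 7.35 and 30.8 M reads per library fell in listed genes. The marker genes followed the labels in the striatum: the sum of 4 D1 neuron markers was 361 to 611 CPM in D1 dorsal libraries against 19.1 to 82.2 in D2 dorsal ones, and the sum of 4 D2 neuron markers was 2563 to 4510 CPM in D2 dorsal against 36.7 to 95.4 in D1 dorsal libraries. In the D1 cortex libraries the D1 receptor gene Drd1a itself averaged 18.8 CPM ± 8.55 (SD, n = 19), near its level in D2 dorsal striatum (15.2 CPM ± 9.01, n = 16). The 5 markers of glutamatergic cortical neurons, among them Slc17a7, summed to 565 to 922 CPM in cortex. In the striatum that sum was higher in D1 libraries (median 101 CPM dorsal, 66.0 CPM ventral) than in D2 libraries (8.17 and 11.3 CPM), and all 5 markers were called higher in D1 in both regions; none was at 0 throughout a group. Library names begin with 1 of 4 letter codes of unstated meaning: EM (53 libraries), OdP (14), BdP (9) and JAG (3). OdP libraries are nearly all D2, so called results are also given for EM libraries alone where these changed the call or the size.

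Differences below are log2 differences of CPM + 0.5 from limma, each with its standard error (SE), and a gene is called different where its Benjamini-Hochberg adjusted p over all genes tested is under 0.05. Of the 9 genes, 8 passed the filter on low values in every comparison and Gpr55 passed in none. The D1 minus D2 comparison called 3 of the 8 in dorsal striatum, all higher in D1, where 25.9% of all genes tested were called, and 1 of the 8 in ventral striatum, also higher in D1, where 47.7% were. Dorsal against ventral striatum called 3 of the 8 higher and 1 lower in D1 neurons (34.6% of all genes called), and 2 higher and 1 lower in D2 neurons (28.5%). Prefrontal cortex differed from dorsal striatum in 4 of the 8 (54.8%) and from ventral striatum in 7 of the 8 (62.8%), all higher in cortex. Over these 6 comparisons, in the order given, the called shares of the 8 genes were 37.5%, 12.5%, 50.0%, 37.5%, 50.0% and 87.5%, each of which moves by 12.5 percentage points with 1 gene, so the sizes of the differences are given gene by gene. The 3 comparisons of D1 dorsal, D1 ventral and cortex libraries share samples with one another, as do those that use the same striatal group.

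**Figure D1:**
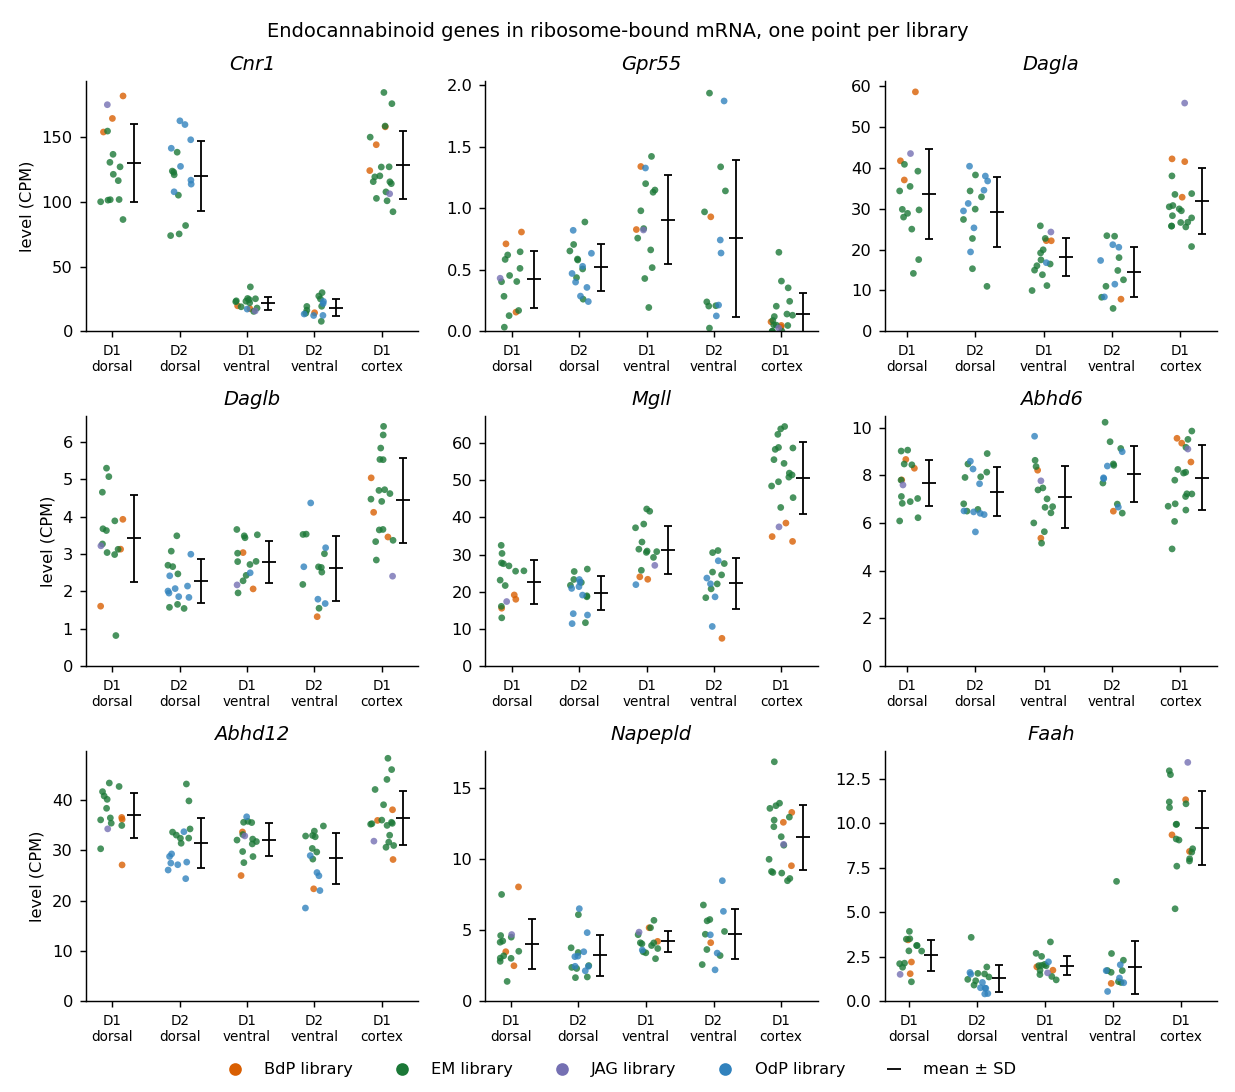
Level of each of the 9 genes in CPM (linear axes from 0) in all 79 libraries, by group; points are libraries coloured by name code, and black bars are the mean ± SD. Cnr1 separates dorsal striatum and cortex (73.9 CPM or more) from ventral striatum (34.3 CPM or less), and Napepld and Faah in cortex lie above every D1 striatal library.

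The CB1 receptor gene Cnr1 spans chr4:33924593-33948831 on the plus strand of GRCm38 in the GENCODE annotation. Its 2 upstream RefSeq starts are shown because Cnr1 has the largest difference between regions among the 9 genes, and those of Faah and Napepld because both genes were higher in cortex. Each sequence is the 300 bases from 250 before to 50 after a RefSeq start (GRCm38.p6), 5′ to 3′ on the gene's strand. Capitals mark matches on either strand to a GC box (GGGCGG, in 35.7% of 32851 RefSeq promoters of this length), an E-box (CACGTG, 7.15%), a cyclic AMP response element (TGACGTCA, 1.79%) or a TATA box (TATAAA, 13.6%). None of the 4 motifs contains another.
Cnr1 upstream start, chr4:33924014-33924313 (+): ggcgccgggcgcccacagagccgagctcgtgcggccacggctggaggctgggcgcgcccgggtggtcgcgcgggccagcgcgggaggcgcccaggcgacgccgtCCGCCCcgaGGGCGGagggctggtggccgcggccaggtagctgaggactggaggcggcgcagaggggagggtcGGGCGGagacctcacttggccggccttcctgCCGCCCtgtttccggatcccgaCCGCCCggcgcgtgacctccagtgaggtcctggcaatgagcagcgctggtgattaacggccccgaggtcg
Cnr1 second start, chr4:33924394-33924693 (+): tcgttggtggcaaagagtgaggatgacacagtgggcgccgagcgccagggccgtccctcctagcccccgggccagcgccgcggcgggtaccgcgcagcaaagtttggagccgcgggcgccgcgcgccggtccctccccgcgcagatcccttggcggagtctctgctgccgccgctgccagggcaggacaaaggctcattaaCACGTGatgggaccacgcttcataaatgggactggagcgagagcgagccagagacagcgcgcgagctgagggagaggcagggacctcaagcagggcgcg
Faah, chr4:116017875-116018174 (-): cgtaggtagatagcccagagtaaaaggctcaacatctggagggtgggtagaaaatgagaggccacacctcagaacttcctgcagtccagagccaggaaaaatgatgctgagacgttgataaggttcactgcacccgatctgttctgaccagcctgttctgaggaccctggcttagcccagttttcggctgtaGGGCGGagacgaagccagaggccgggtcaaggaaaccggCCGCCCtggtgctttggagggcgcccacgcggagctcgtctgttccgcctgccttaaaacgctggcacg
Napepld, chr5:21701573-21701872 (-): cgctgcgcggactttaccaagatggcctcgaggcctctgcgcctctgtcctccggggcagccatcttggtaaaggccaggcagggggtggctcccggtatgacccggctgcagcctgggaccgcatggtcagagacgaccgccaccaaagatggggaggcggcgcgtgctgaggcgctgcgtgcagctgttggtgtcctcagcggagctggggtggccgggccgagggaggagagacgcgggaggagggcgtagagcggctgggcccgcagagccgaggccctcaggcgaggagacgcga

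The upstream Cnr1 window holds 5 GC boxes and is 76.3% G and C, against a median of 52.7% over all promoters, and the second window holds 1 E-box and no GC box. The third Cnr1 start, further downstream, has no match to any of the 4 motifs. The Faah window has 2 GC boxes, and the Napepld window, at 70.3% G and C, has no match. Mgll, also higher in cortex, is not printed. Its windows have 1 GC box each, and the first also has 1 E-box. In all, 7 of the 9 genes matched a RefSeq promoter; Dagla and Abhd12 did not. The data give no signal at promoters, so a match is a description of the letters only.

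Dorsal striatum held far more Cnr1 mRNA on ribosomes than ventral striatum in both kinds of neuron, by 6.06-fold in D1 and 6.60-fold in D2 neurons as the ratio of mean CPM. In D1 neurons it ran from 86.3 to 182 CPM (median 127) in 15 dorsal libraries and from 15.3 to 34.3 CPM (median 21.9) in 15 ventral ones. In D2 neurons it ran from 73.9 to 163 CPM (median 122) in 16 dorsal libraries and from 7.64 to 29.8 CPM (median 17.7) in 14 ventral ones. No dorsal library overlapped a ventral one for either receptor. The difference was 2.57 (SE 0.11, adjusted p = 6.05e-19) in D1 neurons, the 18th largest of 11332 genes tested, and 2.74 (SE 0.15, adjusted p = 2.26e-16) in D2 neurons, the 16th largest of 11187. All genes together had a median of -0.12 in both of these comparisons, so that Cnr1 lay 2.69 and 2.85 above the typical gene; with median-ratio scaling that median moved to -0.01 and 0.01. Within EM libraries the differences were 2.32 (D1) and 2.45 (D2), and within OdP libraries, a D2 comparison added after the data were seen, 3.04. Each library pools the ribosomes of many cells, so fewer cells that hold Cnr1 and less Cnr1 per cell cannot be told apart. The 4 markers of striatal projection neurons moved with Cnr1: all 4 were called higher dorsally in both kinds of neuron, with median sums of 2277 CPM dorsally and 1413 CPM ventrally in D1 and of 2980.3 and 1610.1 CPM in D2 libraries. Oligodendrocyte markers were also higher in D1 dorsal libraries, 3 of 3 tested, with median sums of 73.5 and 46.7 CPM; in D2 libraries 1 of 5 was called higher, with 109.8 and 80.5 CPM. In D1 libraries dorsal minus ventral also called 3 of 4 parvalbumin or somatostatin interneuron markers higher and 1 lower (median sums 29.1 and 16.9 CPM) and 2 of 5 glutamatergic cortical markers higher (101.1 and 66.0 CPM). In D2 libraries these lists had 0 higher and 3 lower of 4, and 0 called of 3 tested. The part of these in the dorsal levels of Cnr1 and Dagla was not tested.

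Cnr1 in D1 prefrontal cortex, from 92.4 to 185 CPM (median 120.1), overlapped nearly the whole range of D1 dorsal striatum. The cortex minus dorsal difference was -0.01 (95% confidence interval -0.22 to 0.20, adjusted p = 0.952). Cortex was above ventral striatum without overlap, 19 libraries against 15, by 2.56 (SE 0.10, adjusted p = 1.26e-24). The order of mean levels was D1 dorsal (130.2 CPM), cortex (129 CPM), D2 dorsal (120.0 CPM), D1 ventral (21.5 CPM) and D2 ventral (18.2 CPM), and only the step from D2 dorsal to D1 ventral exceeded the SD of its neighbours. Cnr1 is also a known marker of cholecystokinin interneurons; 6 markers of that caudal class of GABA interneuron, Cck among them, summed to a median of 49.3 CPM in D1 dorsal, 34.4 CPM in D1 ventral, 13.9 CPM in D2 dorsal, 15.1 CPM in D2 ventral and 394 CPM in cortex libraries. Of the 4 tested in striatum, dorsal minus ventral called 2 higher and 1 lower in D1 and 0 higher and 1 lower in D2 libraries. Their part in the level of Cnr1 was not tested.

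Cnr1 was not called between D1 and D2 neurons. The log2 difference was 0.12 (95% confidence interval -0.12 to 0.36, adjusted p = 0.475) in dorsal striatum. In ventral striatum it was 0.29 (interval -0.01 to 0.59, adjusted p = 0.107), and leaving out D2 ventral replicate 4, the D2 ventral library highest in Cnr1, made it 0.35 (adjusted p = 0.0424). Scaled to reads in listed genes it was 0.41 (adjusted p = 0.036), and the direction turned, to -0.03, in a fit that included the percentage of reads in genes. The interaction of receptor and region was not called either, at -0.17 (interval -0.56 to 0.22, adjusted p = 0.728). In dorsal striatum the Cnr1 level went with the library name code: D1 dorsal EM libraries averaged 116 CPM ± 20.1 (SD, n = 11) and the 3 BdP libraries 167 CPM ± 14.1, while D2 dorsal EM libraries averaged 105 CPM ± 25.2 (n = 8) and OdP 135 CPM ± 21.3 (n = 8).

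Gpr55 encodes a G protein-coupled receptor for lysophosphatidylinositol that some cannabinoids also engage (chr1:85938318-85961007, minus strand). It was near the limit of detection, with 1 to 123 reads per striatal library. It ran from 0.0327 to 0.807 CPM (median 0.431) in D1 dorsal, 0.241 to 0.889 CPM (median 0.517) in D2 dorsal, 0.193 to 1.42 CPM (median 0.835) in D1 ventral and 0.0253 to 1.94 CPM (median 0.689) in D2 ventral striatum. In cortex it reached at most 0.642 CPM (median 0.0767), and 3 of 19 libraries had 0 reads, which allows up to 0.0554 to 0.105 CPM in those libraries (3 reads; counting error only). The groups overlapped in every comparison. Without the filter on low values, limma called Gpr55 lower in dorsal than ventral D1 libraries (-0.60, SE 0.14, adjusted p = 0.00196) and lower in cortex than in D1 dorsal (-0.52, SE 0.12, adjusted p = 0.000445) and D1 ventral libraries (-1.12, SE 0.12, adjusted p = 1.16e-09). An overlap of 71 exon bases with 4933407L21Rik on the opposite strand, itself at group means of 0.703 to 2.68 CPM, adds to the uncertainty, as the library kit does not mark strand.

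**Figure D2:**
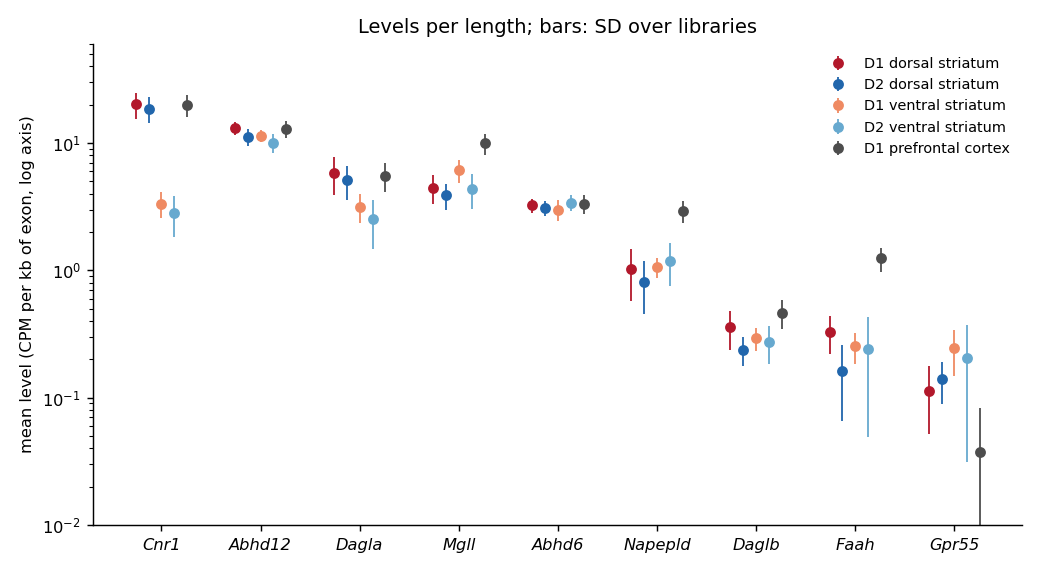
Mean level per length (CPM per kb of exon, log axis) of the 9 genes in the 5 groups; bars are the SD over libraries, and the bar of Gpr55 in cortex, whose SD exceeds its mean, runs off the lower edge. Cnr1 leads in dorsal striatum and cortex (18.6 to 20.2 CPM per kb) and Abhd12 in ventral striatum (11.4 and 10.1 CPM per kb).

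Levels of different genes are compared per kb of exon, since longer transcripts give more reads. In both dorsal groups the order was Cnr1, Abhd12, Dagla, Mgll and Abhd6, from 20.2 to 3.25 CPM per kb in D1 and from 18.6 to 3.10 in D2, followed by Napepld at 1.02 and 0.817, Daglb at 0.358 and 0.238 and Faah at 0.329 and 0.162. In ventral striatum Abhd12 came first, at 11.4 CPM per kb in D1 and 10.1 in D2, and Mgll second, at 6.15 and 4.38. Cnr1 and Dagla there were at 3.34 and 3.17 CPM per kb in D1, a gap smaller than either SD (0.764 and 0.816). In cortex Mgll, at 9.97 CPM per kb, lay between Abhd12 (12.9) and Dagla (5.55).

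Dagla encodes diacylglycerol lipase alpha, the enzyme that makes most of the 2-AG used at brain synapses (chr19:10245265-10304877, minus strand). Like Cnr1 it was at its higher level dorsally, by a smaller factor. In D1 neurons it ran from 14.2 to 58.6 CPM (median 34.4) in dorsal and from 9.97 to 25.8 CPM (median 17.5) in ventral libraries, with 12 of the 15 dorsal libraries above the highest ventral one. In D2 neurons it ran from 10.99 to 40.4 CPM (median 30.6) in dorsal and from 5.58 to 23.4 CPM (median 13.7) in ventral libraries, and 12 of the 16 were above that range. The groups therefore overlapped at the lowest dorsal libraries, such as D1 dorsal replicate 13 and D2 dorsal replicate 6. Of their groups, these had the highest percentages of a library's total in listed genes, at 40.0% and 40.2%. The difference was 0.84 (SE 0.15, adjusted p = 5.56e-05) in D1 and 1.03 (SE 0.19, adjusted p = 8.81e-05) in D2 neurons, or 0.95 and 1.15 above the median of all genes. It was 0.76 and 0.87 within EM libraries.

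In cortex Dagla ran from 20.7 to 55.9 CPM (median 30.0), above ventral striatum by 0.80 (SE 0.12, adjusted p = 1.01e-07) and level with D1 dorsal striatum to within an interval of -0.31 to 0.24 (difference -0.03, adjusted p = 0.852). Dagla was not called between D1 and D2 neurons, at 0.20 (interval -0.15 to 0.54, adjusted p = 0.412) in dorsal and 0.39 (interval 0.02 to 0.75, adjusted p = 0.0722) in ventral striatum. The ventral value passed the threshold when any 1 of 6 libraries was left out (D1 ventral replicates 3 and 6, D2 ventral replicates 3, 4, 10 and 11), at 0.43 to 0.45, and when scaled to reads in listed genes (0.51, adjusted p = 0.0243). The other 9 of 10 alternatives did not call it, with differences down to 0.30 and adjusted p up to 0.496.

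Daglb encodes diacylglycerol lipase beta, the second 2-AG synthase, best known from microglia and macrophages (chr5:143464584-143505942, plus strand). It was a low-level gene, from 0.818 to 5.30 CPM (median 3.27) in D1 dorsal, 1.54 to 3.49 CPM (median 2.11) in D2 dorsal and 2.41 to 6.42 CPM (median 4.47) in cortex libraries, and from 1.96 to 3.66 CPM (median 2.80) in D1 ventral ones. Cortex was higher than D1 ventral striatum by 0.57 (SE 0.11, adjusted p = 1.61e-05) and than D1 dorsal striatum by 0.37 (SE 0.15, adjusted p = 0.0317), with overlap in both. D1 exceeded D2 in dorsal striatum by 0.45 (SE 0.16, adjusted p = 0.031), and 7 of 15 D1 libraries lay above every D2 one. Daglb shares 2309 exon bases (24.1% of its exon length) with Rac1 on the opposite strand, and Rac1 stood at group means of 349 to 439 CPM, so reads of the 2 genes may not be fully told apart. The 5 microglial markers summed to medians of 2.14 to 2.94 CPM in the 5 groups, with overlapping ranges.

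The Daglb calls that involve dorsal striatum did not hold in all fits. D1 minus D2 was 0.46 within EM libraries but no longer called (adjusted p = 0.203), likewise 0.46 with the name code as a covariate (adjusted p = 0.136), and 0.27 with the percentage of reads in genes as a covariate (adjusted p = 0.165). The EM fit and the name-code fit give the same estimate, since EM is the only code in both dorsal groups. The D1 minus D2 call was also lost without D1 dorsal replicate 5, 6 or 9 (0.40 to 0.41). Cortex minus dorsal was not called within EM libraries (0.38, adjusted p = 0.0617), with median-ratio scaling (0.31, adjusted p = 0.0575) or in edgeR (0.29, adjusted p = 0.119), nor without D1 dorsal replicate 3 (0.31) or 13 (0.27) or cortex replicate 9 (0.34). Nor was it called in a fit on EM libraries with runs of consecutive title numbers as a block. Leaving out D1 dorsal replicate 13, the lowest library in Daglb at 0.818 CPM, raised the uncalled dorsal minus ventral difference in D1 from 0.19 (adjusted p = 0.334) to 0.30 (adjusted p = 0.0387).

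Mgll encodes monoacylglycerol lipase, which ends most of the 2-AG signal in brain (chr6:88724412-88828360, plus strand). It was highest in cortex, from 33.6 to 64.5 CPM (median 51.4), where all 19 libraries lay above the 15 of D1 dorsal striatum (12.99 to 32.5 CPM, median 23.1). The cortex minus dorsal difference was 1.16 (SE 0.11, adjusted p = 9.52e-12). D1 ventral striatum lay between, from 21.9 to 42.3 CPM (median 30.8), with 15 of the 19 cortex libraries above all of them and a difference of 0.69 (SE 0.10, adjusted p = 6.45e-08). Mgll thus went the other way from Cnr1 and Dagla within the D1 striatum: dorsal minus ventral was -0.47 (SE 0.12, adjusted p = 0.00236), or -0.35 against the median of all genes. The same difference in D2 neurons was -0.13 (interval -0.46 to 0.20, adjusted p = 0.597), with 11.4 to 26.1 CPM (median 21.1) in dorsal and 7.47 to 31.1 CPM (median 22.9) in ventral libraries, and with median-ratio scaling it was 0.00139. A difference between the receptors in this was not called (interaction -0.34, interval -0.75 to 0.07, adjusted p = 0.447). In D1 libraries, dorsal minus ventral also called all 4 D2 neuron markers lower (median sums 62.8 and 131 CPM). Their part in the Mgll difference, and that of the marker lists given for Cnr1, was not tested.

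Mgll was the 1 gene of the 8 called between the receptors in ventral striatum, higher in D1 by 0.54 (SE 0.15, adjusted p = 0.00467), with 6 of 15 D1 libraries above every D2 one. Within EM libraries the difference was 0.43 and still called. The percentage of a library's total that fell in listed genes also differed, with medians of 34.7% in D1 ventral and 38.2% in D2 ventral libraries, and with that percentage as a covariate the Mgll difference was 0.19 (adjusted p = 0.589). The glutamatergic cortical markers, higher in D1 ventral libraries as given above, also moved with it. Of the caudal GABA interneuron markers tested there, 2 were called higher in D1 and 1 lower, and all 3 cholinergic markers tested were lower. Also lower were 2 of 3 oligodendrocyte markers tested (median sums 46.7 and 80.5 CPM) and 1 of 4 parvalbumin or somatostatin markers, with none higher. Of the 4 striatal projection neuron markers, 2 were called higher and 2 lower. The part of these in the Mgll difference was not tested. In dorsal striatum D1 minus D2 was 0.19 (interval -0.07 to 0.46, adjusted p = 0.283).

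Abhd6 and Abhd12 encode the serine hydrolases that break down the rest of the 2-AG, Abhd6 at the inner face of the membrane and Abhd12, which also hydrolyses lysophosphatidylserine, at the outer (chr14:8002902-8056763, plus strand, and chr2:150832493-150904741, minus strand). Abhd6 was the most even of the 9 genes, with group means of 7.10 to 8.06 CPM, SDs of 0.966 to 1.36 CPM and no call in limma on the deposited CPM in any comparison. edgeR called it higher in cortex than in ventral striatum (0.20, adjusted p = 0.0429), where limma gave 0.14 (adjusted p = 0.156), and limma with median-ratio scaling called it higher in dorsal than ventral D1 libraries (0.22, adjusted p = 0.0394). Its largest difference in the 6 two-group comparisons was -0.18, in D1 minus D2 of ventral striatum (interval -0.38 to 0.02, adjusted p = 0.127). Abhd12 ran from 27.1 to 43.4 CPM (median 36.5) in D1 dorsal, 24.4 to 43.2 CPM (median 31.9) in D2 dorsal, 25.0 to 36.7 CPM (median 32.3) in D1 ventral, 18.5 to 34.9 CPM (median 29.3) in D2 ventral and 28.2 to 48.4 CPM (median 35.4) in cortex libraries. All of these ranges overlap, and the largest Abhd12 difference in the 6 two-group comparisons was 0.23 on the log2 scale.

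Abhd12 was nonetheless called in 3 comparisons, each small: D1 minus D2 in dorsal striatum (0.23, SE 0.08, adjusted p = 0.0325), dorsal minus ventral in D1 neurons (0.20, SE 0.07, adjusted p = 0.0252) and cortex minus ventral (0.17, SE 0.07, adjusted p = 0.0255). The first was 0.12 within EM libraries (adjusted p = 0.423), where the means were 38.2 CPM ± 3.99 (SD, 11 D1 libraries) and 35.0 CPM ± 4.20 (SD, 8 D2 libraries), and it was lost without any 1 of 9 libraries (D1 dorsal replicates 5, 11, 12 and 14, D2 dorsal replicates 9, 10, 12, 13 and 15), at 0.21 to 0.22. It was also lost with the name code (0.12, adjusted p = 0.367) or the percentage of reads in genes (0.19, adjusted p = 0.0928) as a covariate. The name-code fit gives the same estimate as EM libraries alone, as EM is the only code in both dorsal groups. The second was lost when libraries were scaled to reads in listed genes (0.19, adjusted p = 0.0618) and with all 5 groups in 1 fit (0.20, adjusted p = 0.051). The third was lost without D1 ventral replicate 2 (0.15, adjusted p = 0.0531) and in a fit with runs of EM title numbers as a block, on 11 of the 15 EM cortex and the 11 EM ventral libraries (0.12, adjusted p = 0.0945). In all EM libraries without the block it was called (0.20, adjusted p = 0.0168). The uncalled D1 minus D2 difference in ventral striatum (0.19, adjusted p = 0.0753) was called without D1 ventral replicate 2 or D2 ventral replicate 2 (0.21 each), and in edgeR (0.19, adjusted p = 0.0428). Of 10 alternatives, edgeR among them, 5 called it and 5 did not. The differences in these fits ran from 0.0069 to 0.30, with adjusted p up to 0.951. EM libraries were level in mean Abhd12, at 32.15 CPM ± 2.77 (SD, 11 D1 ventral libraries) and 31.95 CPM ± 2.26 (SD, 8 D2 ventral libraries). Dorsal minus ventral in D2 neurons, 0.16 in limma (adjusted p = 0.240), was 0.30 in edgeR (adjusted p = 0.0118).

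**Figure D3:**
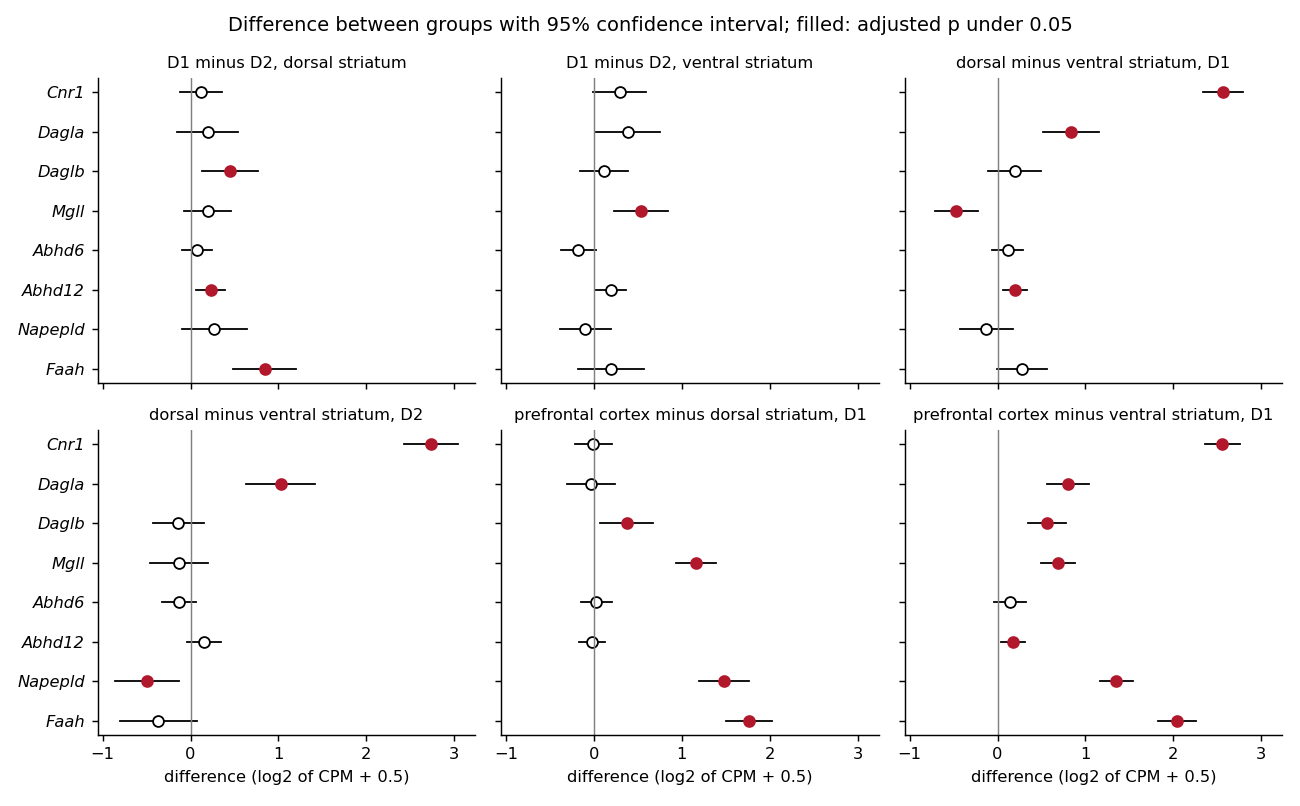
Log2 difference (CPM + 0.5) with its 95% confidence interval for the 8 genes tested in the 6 two-group comparisons; filled points have an adjusted p under 0.05. Cnr1 lies between 2.56 and 2.74 in both dorsal minus ventral panels and in cortex minus ventral, and Napepld and Faah between 1.35 and 2.04 in both cortex panels.

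Napepld encodes the phospholipase D that releases anandamide and its relatives from membrane phospholipid (chr5:21662901-21701396, minus strand). Its mean CPM was 2.86-fold higher in cortex than in D1 dorsal and 2.75-fold higher than in D1 ventral striatum. It ran from 8.46 to 16.8 CPM (median 11.6) in cortex, 1.38 to 8.02 CPM (median 3.50) in D1 dorsal and 2.97 to 5.67 CPM (median 4.08) in D1 ventral libraries. No cortex library overlapped a D1 striatal one. The difference was 1.48 (SE 0.14, adjusted p = 3.09e-12) against dorsal and 1.35 (SE 0.09, adjusted p = 1.30e-16) against ventral striatum, and 1.54 and 1.38 within EM libraries.

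Within the striatum the groups overlapped in Napepld. D1 and D2 were 0.27 apart in dorsal (interval -0.10 to 0.64, adjusted p = 0.272) and -0.10 in ventral striatum (interval -0.39 to 0.19, adjusted p = 0.591). In D2 neurons it ran from 1.64 to 6.49 CPM (median 2.80) in dorsal and from 2.19 to 8.46 CPM (median 4.67) in ventral libraries, a called difference of -0.50 (SE 0.18, adjusted p = 0.0339) with much overlap, or -0.38 against the median of all genes. The direction was the same in all alternatives, but most of them lost the call: no filter on low values (-0.50, adjusted p = 0.0548), median-ratio scaling (-0.38, adjusted p = 0.124), edgeR (-0.41, adjusted p = 0.150) and the percentage of reads in genes as a covariate (-0.33, adjusted p = 0.133). It was -0.61 in EM libraries alone (adjusted p = 0.0711) and -0.41 in OdP libraries alone (adjusted p = 0.333). It was also lost without any 1 of 10 libraries, D2 dorsal replicates 3, 4, 5, 11 and 16 and D2 ventral replicates 2, 8, 9, 13 and 14, at -0.48 to -0.43. Interneuron markers were also lower in D2 dorsal than D2 ventral libraries. Called lower were 3 of 4 parvalbumin or somatostatin markers (median sums 10.1 and 19.7 CPM), 2 of the 3 cholinergic markers tested (6.32 and 12.2 CPM) and 1 of the 4 caudal markers tested, with none called higher; their part in the Napepld difference was not tested.

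Faah encodes fatty acid amide hydrolase, the main anandamide-degrading enzyme, typically found in the soma and dendrites of principal neurons (chr4:115967145-116017926, minus strand). It too was high in cortex, from 5.19 to 13.4 CPM (median 9.35), with every library above the 15 of D1 dorsal (1.08 to 3.92 CPM, median 2.81) and the 15 of D1 ventral striatum (1.19 to 3.32 CPM, median 1.98). The difference was 1.76 (SE 0.13, adjusted p = 1.90e-15) against dorsal striatum, the most of the 8 genes, and 2.04 (SE 0.11, adjusted p = 3.40e-20) against ventral striatum. In cortex the astrocyte markers summed to a median of 25.1 CPM, against 6.16 CPM in D1 dorsal and 4.04 CPM in D1 ventral libraries, and the glutamatergic markers were higher as given above. The caudal GABA interneuron markers, at medians of 394, 49.3 and 34.4 CPM, and the parvalbumin or somatostatin interneuron markers, at 127.9, 29.1 and 16.9 CPM in the same order, were higher too. All 5 astrocyte, 5 glutamatergic, 6 caudal and 4 parvalbumin or somatostatin markers were called higher in cortex in both comparisons. The part of any of them in the cortical levels of Faah, Napepld, Mgll or any other gene called higher in cortex was not tested.

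Faah also showed the largest receptor difference of the 8 genes in dorsal striatum. It ran from 1.08 to 3.92 CPM in the D1 libraries and from 0.396 to 3.58 CPM (median 1.18) in the 16 D2 libraries, 7 of which lay below every D1 one. Of those 7, only D2 dorsal replicate 5 was an EM library, at 0.893 CPM. The others were OdP, a code that no D1 dorsal library has. D1 minus D2 was 0.84 (SE 0.18, adjusted p = 0.000497). Within EM libraries, with means of 2.72 CPM ± 0.840 (SD, 11 D1 libraries) and 1.65 CPM ± 0.839 (SD, 8 D2 libraries), the difference was 0.61 with an adjusted p of 0.0546, while the 8 OdP libraries of D2 averaged 0.893 CPM ± 0.456. In ventral striatum D1 (1.19 to 3.32 CPM) and D2 (0.535 to 6.73 CPM, median 1.66) were 0.19 apart (interval -0.18 to 0.57, adjusted p = 0.393). With 1 library left out this receptor difference ran from 0.11 to 0.33 and was never called (lowest adjusted p = 0.0637). A difference between dorsal and ventral striatum in this was not called (interaction 0.65, interval 0.13 to 1.16, adjusted p = 0.193).

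Markers of other cells also differed alongside the Faah receptor difference in dorsal striatum, in both directions. Called higher in D1 were 5 of 5 glutamatergic cortical markers, 3 of 4 parvalbumin or somatostatin interneuron markers and 2 of 6 caudal GABA interneuron markers, of which 4 were tested; none of these was called lower. The glutamatergic ones summed to 33.2 to 140.5 CPM in D1 and 1.56 to 37.1 CPM in D2 libraries, the parvalbumin or somatostatin ones to medians of 29.1 and 10.1 CPM, and the caudal ones to medians of 49.3 and 13.9 CPM. Called lower in D1 were the 1 cholinergic marker tested (median sums 0.751 and 6.32 CPM) and 2 of 4 striatal projection neuron markers (2277 and 2980 CPM). So were 2 of 4 oligodendrocyte markers tested (73.5 and 109.8 CPM) and 1 of 2 choroid plexus markers tested, with none of these lists called higher. The part of any of them in this difference, or in those of Daglb and Abhd12 in the same comparison, was not tested. D2 ventral replicate 9, with 6.73 CPM of Faah, had a glutamatergic sum of 12.5 CPM and a caudal interneuron sum of 26.1 CPM, the second highest of its group. D2 dorsal replicate 6, with 3.58 CPM of Faah, had 13.9 CPM and 23.8 CPM, the highest caudal sum of its group. D2 ventral replicate 2, which had the highest sums of the D2 libraries, at 84.5 and 39.3 CPM, had 1.71 CPM of Faah. D1 dorsal replicate 13 was the lowest of its group in Faah, Gpr55, Dagla, Daglb and Mgll, with 12.2 M reads in genes and a glutamatergic sum of 86.4 CPM. It was the highest of its group in Abhd6, at 9.06 CPM, and in the percentage of its total in listed genes, at 40.0%. Without it the uncalled dorsal minus ventral difference of Faah in D1 neurons, 0.28 (adjusted p = 0.116), was 0.34 (adjusted p = 0.0305); it was also called in edgeR (0.48, adjusted p = 0.0281) and with median-ratio scaling (0.37, adjusted p = 0.0367).

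**Figure D4:**
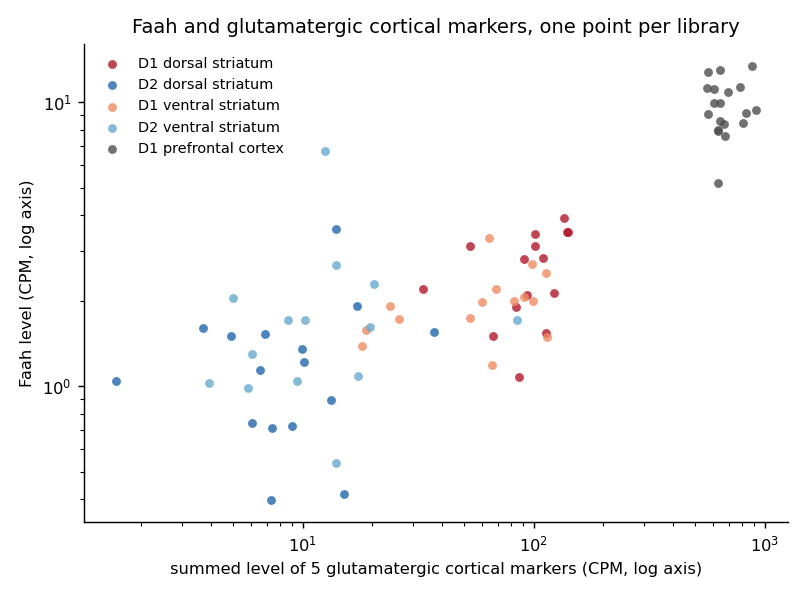
Faah level against the summed level of 5 glutamatergic cortical markers, both in CPM on log axes, 1 point per library coloured by group. D1 cortex libraries (565 to 922 CPM of markers) lie apart at upper right, and D2 ventral replicate 9 has the highest Faah of the striatal libraries, 6.73 CPM, at a marker sum of 12.5 CPM.

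None of the 8 genes had a called receptor by region interaction in limma, where 2.64% of 11873 genes did. At an unadjusted p under 0.05 there were 2, Faah and Abhd6 (0.25, interval 0.01 to 0.49), and edgeR called 0, with 1 at that unadjusted level. The D1 minus D2 differences of the 8 genes had a median of 0.21 in dorsal and 0.19 in ventral striatum, beside 0.02 over all genes tested in each. Their dorsal minus ventral medians were 0.20 in D1 and -0.13 in D2 neurons, beside -0.12 over all genes, and their cortex medians were 0.20 against dorsal and 0.75 against ventral striatum, beside 0.05 and -0.07.

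Since a ratio of 2 genes in 1 library hardly depends on the library's scaling, the 2-AG synthase was also set against the 2-AG hydrolase. The log2 ratio of Dagla to Mgll (each CPM + 0.5) was 0.53 ± 0.57 (SD, n = 15) in D1 dorsal and 0.53 ± 0.43 (n = 16) in D2 dorsal striatum. It was -0.78 ± 0.54 (n = 15) in D1 ventral, -0.63 ± 0.60 (n = 14) in D2 ventral striatum and -0.67 ± 0.51 (n = 19) in cortex. Mgll thus had more reads than Dagla in 14 of 15 D1 ventral, 13 of 14 D2 ventral and 16 of 19 cortex libraries, and Dagla more than Mgll in 12 of 15 D1 dorsal and 14 of 16 D2 dorsal ones. The ratio also went with the name code, being lower in EM libraries in all 5 groups. Within EM libraries it was 0.24 ± 0.30 (n = 11) in D1 dorsal, -0.999 ± 0.451 (n = 11) in D1 ventral, 0.26 ± 0.41 (n = 8) in D2 dorsal, -0.87 ± 0.66 (n = 8) in D2 ventral and -0.91 ± 0.18 (n = 15) in cortex libraries. The 4 cortex libraries of other codes averaged 0.23, and 3 of them were above 0.

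The log2 ratio of the 2 lipases, Dagla to Daglb, averaged 3.12 ± 0.55 in D1 dorsal, 3.37 ± 0.45 in D2 dorsal, 2.48 ± 0.42 in D1 ventral, 2.21 ± 0.66 in D2 ventral and 2.72 ± 0.52 in cortex libraries, so the reads of Dagla exceeded those of Daglb throughout. The ratio of Abhd6 to Mgll, the minor to the main 2-AG hydrolase, was -1.46 ± 0.48 in D1 dorsal, -1.34 ± 0.42 in D2 dorsal, -2.05 ± 0.42 in D1 ventral, -1.34 ± 0.55 in D2 ventral and -2.60 ± 0.44 in cortex libraries. Abhd6 was even across groups, so this ratio mirrors the level of Mgll.

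The ratio of Napepld to Faah, the anandamide pair, averaged 0.52 ± 0.84 in D1 dorsal, 1.09 ± 0.58 in D2 dorsal, 0.93 ± 0.39 in D1 ventral, 1.22 ± 0.57 in D2 ventral and 0.24 ± 0.40 in cortex libraries. All groups overlapped, and the cortex mean was the lowest. D1 ventral striatum exceeded cortex by 0.69, more than either SD, with 8 of its 15 libraries above every cortex one and 7 of 19 cortex libraries below every ventral one. Within EM libraries the means were 0.39, 0.67, 0.88, 0.98 and 0.27 in the same order of groups, and the 8 OdP libraries of D2 dorsal striatum averaged 1.52.

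**Figure D5:**
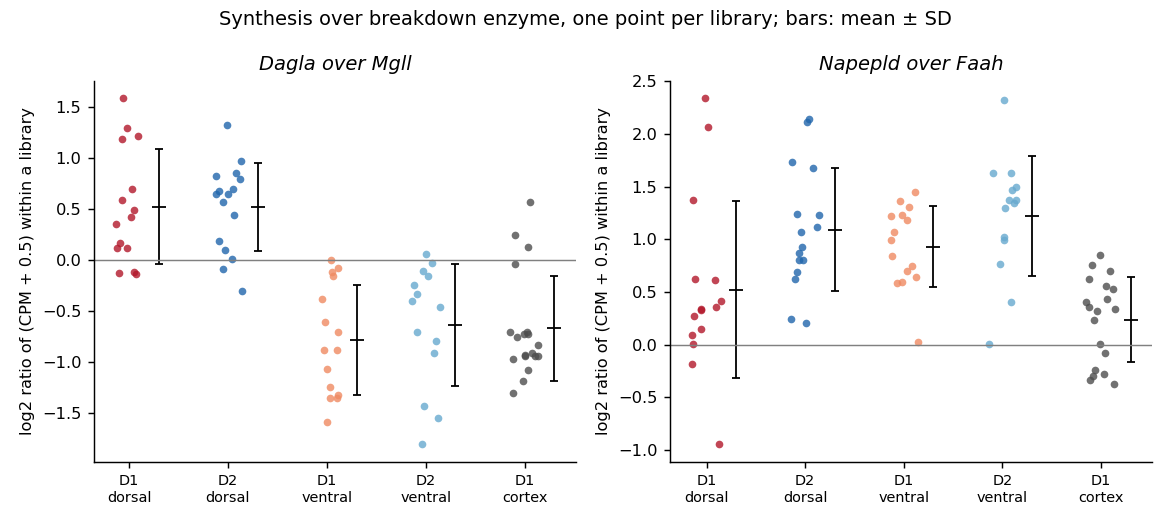
Log2 ratio within each library of Dagla to Mgll (left) and Napepld to Faah (right), 1 point per library, with mean ± SD. Dagla to Mgll averages 0.53 in both dorsal groups and -0.78 to -0.63 in the ventral groups and cortex; Napepld to Faah overlaps in all groups.

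Of 29 other genes of the pathway, all present in the table, 19 or 20 were tested in each comparison. D1 minus D2 called 2 higher and 4 lower in dorsal and 3 higher and 6 lower in ventral striatum. Dorsal minus ventral called 4 higher and 5 lower in D1 and 4 higher and 6 lower in D2 neurons, and cortex called 10 higher and 5 lower against dorsal and 9 higher and 7 lower against ventral striatum; the interaction called 0 of 20 in limma, with 5 at an unadjusted p under 0.05, and 0 in edgeR, with 4. As shares of those tested, these were 31.6%, 47.4%, 47.4%, 52.6%, 75.0% and 80.0% in the 6 two-group comparisons, beside 25.9%, 47.7%, 34.6%, 28.5%, 54.8% and 62.8% of all genes tested. In ventral D1 minus D2 the share was thus that of all genes. The group means of the second cannabinoid receptor gene, Cnr2, were at most 0.0126 CPM, and those of the capsaicin receptor gene Trpv1, which anandamide can open, at most 0.00801 CPM.

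Diacylglycerol, the substrate of Dagla, is released by phospholipases C. All 3 phospholipase C beta genes that were tested, Plcb1, Plcb2 and Plcb4, were called in both cortex comparisons, with Plcb4 higher in cortex and the other two lower; 54.8% and 62.8% of all genes were called there. Plcb1, a phospholipase C beta, was higher in dorsal D1 neurons by 0.65 (SE 0.09, adjusted p = 3.60e-07), at 309.6 CPM ± 63.3 against 195 CPM ± 23.9 (SD, n = 15 each). Plcb4 was higher in cortex without overlap, by 2.07 (SE 0.14) against dorsal and 2.14 (SE 0.09) against ventral striatum. Grm5, a metabotropic glutamate receptor that drives phospholipase C, was lower in D1 than in D2 neurons, by -0.45 (SE 0.10, adjusted p = 0.000999) in dorsal and -0.53 (SE 0.13, adjusted p = 0.00189) in ventral striatum.

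Among partners of the receptor, Cnrip1, which encodes a protein that binds the CB1 tail, did not follow Cnr1. It was lower in dorsal than in ventral striatum, by -0.57 (SE 0.13, adjusted p = 0.000601) in D1 and -0.80 (SE 0.12, adjusted p = 4.21e-06) in D2 neurons. It was higher in D1 than D2 dorsal libraries by 0.64 (SE 0.15, adjusted p = 0.0011) and in cortex by 1.71 (SE 0.11, adjusted p = 4.42e-17, no overlap) against dorsal striatum. Ptgs2, the inducible cyclooxygenase that also oxidises endocannabinoids, was at 4.49 CPM ± 1.18 (SD, n = 19) in cortex against 1.26 CPM ± 0.437 and 0.846 CPM ± 0.324 (n = 15 each) in D1 dorsal and ventral striatum, differences of 1.50 (SE 0.12) and 1.89 (SE 0.12) with no overlap.

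The lipid-binding proteins that carry anandamide inside cells differed in both directions. Fabp3 was higher in D1 than in D2 dorsal libraries by 0.87 (SE 0.18, adjusted p = 0.000315), and Fabp7, a gene best known from astrocytes and radial glia, was lower by -0.68 (SE 0.20, adjusted p = 0.00974). In D2 neurons Fabp3 and Fabp5 were lower in dorsal striatum, by -0.84 (SE 0.21, adjusted p = 0.00235) and -0.83 (SE 0.13, adjusted p = 8.91e-06). In cortex Fabp7 was higher than in dorsal striatum by 1.47 (SE 0.19, adjusted p = 1.08e-08). Of the genes for other anandamide routes, Hrasls (Plaat1) was lower in dorsal D1 neurons by -0.47 (SE 0.07, adjusted p = 5.38e-07) with no overlap, Pla2g16 (Plaat3) was lower in D1 than D2 ventral libraries by -0.55 (SE 0.18, adjusted p = 0.0139), and Pla2g4e was higher in cortex than in ventral striatum by 1.18 (SE 0.16, adjusted p = 4.12e-08). Plcb2 was higher in D1 than D2 ventral libraries by 0.63 (SE 0.14, adjusted p = 0.000608) and lower in cortex than in D1 ventral striatum by -1.67 (SE 0.13, adjusted p = 1.45e-14, no overlap).

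For the 5 genes that differed at least 2-fold in some comparison, the other genes nearest in profile over the 5 group means were found among 9001 candidates, by the root mean square difference (RMS) of centred log2 values. Cnr1 had no close match: the nearest was Sema7a, a membrane-anchored semaphorin, at an RMS of 0.42, followed by S100a10 (0.49) and Grm8 (0.51). The other 4 had nearer ones. Dagla was nearest to Lynx1, a modulator of nicotinic receptors (0.08), then Ier5 and Mmp17 (0.12 each). Mgll was nearest to Nos1ap (0.06), Napepld to Sprn (0.03) and Faah to Ly6e (0.10). Sema7a averaged 26.5, 28.2, 7.15, 7.73 and 26.0 CPM in D1 dorsal, D2 dorsal, D1 ventral, D2 ventral and cortex libraries, a dorsal to ventral step in the same direction as that of Cnr1 and smaller.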

How the data were processed

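The 79 libraries were made from polyadenylated RNA bound to tagged ribosomes, amplified with a kit that does not mark strand and sequenced as paired reads, per the labels' protocols. The deposited table gives CPM, counts scaled to the size of the library, per the file headers; the submitters' processing notes name Trim Galore 0.4.2, cutadapt 1.9.1, FastQC, HISAT2 0.12.2 and GRCm38. The read counter, its annotation, its use of strand and the total behind the CPM are not given in the sources used here. Every value was a whole multiple of the library's smallest (100% within 0.01 read), which gave back reads; a library's listed genes summed to 309566 to 401527 CPM. No library was a repeat of another in its group: for every pair the chi-square statistic over genes was at least 7.83 times its degrees of freedom.

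Groups were compared with limma 3.58.1 (R 4.3.3; lmFit and eBayes with trend, two-sided) on log2(CPM + 0.5), over genes that reached 1 CPM in a number of libraries no lower than the size of the smaller group, with Benjamini-Hochberg adjustment over all genes tested. Log2 differences understate the change of low genes. The test was run on simulated data first. Libraries were treated as independent, since the labels do not say whether regions came from the same mice; p-values measure the spread between these pools. The alternatives were another pseudocount, no filter, 2 other scalings, edgeR 4.0.16 on the recovered reads, EM libraries only, the name code or the percentage of reads in genes as covariates, all 5 groups in 1 fit, leaving out each library and, added after seeing the data, OdP libraries only and EM libraries with runs of title numbers as a block.

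The 9 genes and the lists were chosen with earlier results of these data known. All 9 genes are named; of the other 29 pathway genes, the rule named up to 4 called genes with the largest differences in each comparison; 1 of these is not reported here. Other values given for those genes, and for Cnr2, Trpv1 and single libraries, were chosen after they were seen. Marker sums add the CPM of lists of 3 to 6 genes. Lengths are the exon bases in GENCODE M21 (GRCm38), and nearest profiles were sought among genes with at least 5 CPM in some group.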

Additional observations from a re-analysis of the deposited data

How the results depend on the processing

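Of 56 results (8 genes in 7 comparisons), 22 were called, and none of these reversed in any alternative or with any library left out. Of the 22, 14 were called in every one of these fits, among them all those of Cnr1 and Dagla between regions and those of Mgll, Napepld and Faah in cortex; 8 were lost in some. Of the 34 not called, 8 were called in some alternative and 11 reversed, to sizes of at most 0.13. In dorsal D1 minus D2, Abhd6 reversed to -0.0236 in EM libraries and, by the same estimate, -0.0236 with the name code as covariate. In ventral D1 minus D2, Napepld was 0.00904 scaled to reads in listed genes and 0.13 with the percentage of reads in genes as covariate, Cnr1 was -0.031 with that covariate, and Faah was -0.0322 in EM libraries. Napepld in D1 dorsal minus ventral was 0.0447 in edgeR; in D2, Mgll was 0.00139 with median-ratio scaling and Abhd6 0.00327 in edgeR. In cortex minus dorsal, Abhd6 was -0.0384 (median-ratio scaling), -0.0516 (edgeR) and -0.00433 (EM), Cnr1 0.12 (EM) and 0.00856 (name code) and Dagla 0.0229 (EM). With 1 library left out, Cnr1 there ran from -0.0482 to 0.0282 and Dagla from -0.115 to 0.0283. The Abhd12 interaction was -0.0109 scaled to reads in listed genes.

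Counts moved by more than 1.5 times in these fits. In dorsal D1 minus D2, 1389 genes (12.25% of those tested) were called in EM libraries and 1658 (14.95%) with the name code as covariate. In all libraries 2871 (25.9%) were called in limma and 26.7% in edgeR. Of the 8 genes, 0 were called in limma on EM libraries (1 at an unadjusted p under 0.05), 1 with the name code, 1 to 3 with 1 library left out and 3 in edgeR on all libraries. In ventral D1 minus D2, of the 8 genes 4 were called scaled to reads in listed genes, 2 with median-ratio scaling, 2 in edgeR, 2 with all 5 groups in 1 fit, 2 without D2 ventral replicate 2 and 1 to 3 with any 1 library left out. In the same order, without the last, the called shares of all genes tested were 48.97%, 48.25%, 47.06%, 47.79% and 48.33%. With the percentage of reads in genes as covariate limma called 0 of the 8 genes (0 at an unadjusted p under 0.05). It called 1218 genes in all (10.67%), against 5443 (47.7%). Dorsal minus ventral in D2 called 2074 genes in OdP libraries, an alternative chosen after seeing the data, and the interaction 480 with the name code as covariate. Scaling moved the split of calls: with median ratios, 50.3% of calls were higher in dorsal D1 (29.2% as deposited) and 51.1% in dorsal D2 (27.8%); scaled to reads in listed genes, 66.3% were higher in ventral D1 than D2 (50.5%) and the median of all genes there moved from 0.02 to 0.14; in edgeR 47.3% were higher in cortex than dorsal (58.9%). The labels give no replicate numbers and do not say which libraries share mice. EM titles run in consecutive numbers over the regions of 1 receptor, so a fit with these runs as a replicate block was added after seeing the data, for region comparisons and the interaction. Libraries of 1 run did not all deviate together (in D1 dorsal and ventral striatum, 9 of 11 pairs had a correlation over 0.1, lowest 0.0426; in D2, 5 of 8, lowest -0.523), so the runs are an assumption. The median correlation was still higher within runs than between them, at 0.19 against -0.02 in D1 and 0.18 against 0.03 in D2 striatum. For cortex it was 0.13 against 0.02 with dorsal and 0.11 against -0.01 with ventral striatum. The main fits leave this out. With the title-number block limma called 3930 (D1) and 2212 (D2) genes dorsal against ventral. It called 5488 and 7227 in cortex against dorsal and ventral striatum and 314 in the interaction. These were 34.55%, 19.6%, 47.67%, 62.13% and 2.62% of the genes tested. Of the 8 genes it called 4, 2, 3, 6 and 0 in the same order, and in the interaction 0 also at an unadjusted p under 0.05. Cortex minus dorsal, not called, was -0.0758 for Abhd6, 0.0226 for Cnr1 and 0.00844 for Dagla with the block. Reads per library, which limit the precision of low genes, were fewest for Gpr55 (0 to 123), Faah (23 to 724) and Daglb (25 to 402).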
